A study of Mus musculus with 8 samples.

Results

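The genes of MHC class II antigen presentation were followed through 4 groups of mouse pro-B cells that lack Ebf1. The set held 10 genes of 20125 with a named probe: the classical chains H2-Aa, H2-Ab1 and H2-Eb1, the invariant chain Cd74, the peptide loading genes H2-DMa, H2-DMb1 and H2-DMb2, their modulators H2-Oa and H2-Ob, and the class II transactivator Ciita. All probes that carried 1 of these names were taken, which gave 12 probes of 39378. The genes were chosen by a readout: the rises of H2-Ab1 and H2-Eb1 between the parental lines and of H2-Ab1 with Lmo2 were known when the set was drawn up. Values of the 10 genes in those 2 comparisons are therefore a description and carry no test.

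All groups share the loss of Ebf1 and derive from lineage-depleted fetal liver cells grown with stem cell factor, Flt3 ligand and interleukin 7. Pro-B(+) cells are a line established on OP9 stroma that keeps the potential for the T-cell lineage. Pro-B(-) cells are a line established on the thymic mesenchymal line TD7 that lacks it. Pro-B(-)/Mock cells are pro-B(-) cells transduced with an empty lentiviral vector, which carries rat CD2 behind an internal ribosome entry site. Pro-B(-)/LMO2 cells received the same vector encoding mouse Lmo2. Each group had 2 one-colour arrays. Each kind of cell is a single line, so the groups compare these lines and not lines with and without potential in general, and the labels do not give the stroma of the transduced cells at harvest. The sample titles do not say whether the arrays of a group came from separate cultures. The paper describes the parental array data as 2 independent biological replicates and makes no such statement for the transduced arrays. For all groups, p-values measure only the spread between these arrays.

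MHC class II molecules are pairs of an alpha and a beta chain that carry peptides from the endosome to the surface of antigen-presenting cells, where CD4 T cells read them. CD74 escorts new pairs to the endosome, H2-DM exchanges its remnant for peptide, and H2-O holds H2-DM back. Their genes share a proximal promoter module of X1, X2 and Y boxes, on which the RFX complex, CREB and NF-Y assemble and recruit CIITA, which does not bind DNA itself. In the mouse, B cells, dendritic cells and activated macrophages use these genes, and early B-lineage progenitors have little of the surface molecule.

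The promoter stretches around the Y box are shown for 6 of the genes, so that the boxes of the classical, DM and DO genes, whose signals on the arrays parted, can be compared. Windows from 250 bases before to 50 bases after the annotated start were held by RefSeq for 7 of the 10 genes (build GRCm38.p6, 8 windows). H2-Ab1, Cd74 and Ciita had none. In the stretches below, each 60 bases long and written 5′ to 3′ on the strand of the gene, capitals mark the Y box core and, where a match was found upstream of it, the X1 core.
H2-Aa: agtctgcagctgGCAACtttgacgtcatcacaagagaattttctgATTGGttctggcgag
H2-Eb1: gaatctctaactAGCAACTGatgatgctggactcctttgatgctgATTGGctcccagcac
H2-DMb1: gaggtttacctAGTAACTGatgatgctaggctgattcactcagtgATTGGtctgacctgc
H2-DMb2: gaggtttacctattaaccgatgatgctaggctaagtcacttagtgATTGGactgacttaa
H2-Oa: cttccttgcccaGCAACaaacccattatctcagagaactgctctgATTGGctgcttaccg
H2-Ob: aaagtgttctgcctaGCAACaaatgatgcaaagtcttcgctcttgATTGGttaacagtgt

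The stretches lie at chr17:34287857-34287916 (minus strand) for H2-Aa and, on the plus strand, at chr17:34305763-34305822 for H2-Eb1, chr17:34153085-34153144 for H2-DMb1, chr17:34145114-34145173 for H2-DMb2, chr17:34092291-34092350 for H2-Oa and chr17:34238803-34238862 for H2-Ob. The Y box core began 48 bases before the annotated start in H2-Aa, 59 in H2-Eb1, 61 in H2-DMb1, 90 in H2-DMb2, 43 in H2-Oa and 57 in H2-Ob. Both strands of each window were searched. ATTGG, the core of the Y box, was present in the windows of 7 of the 7 genes and in 37.4% of 32851 windows of all genes. TGACG, a core of the X2 box, was present in that of H2-Aa alone and in 20.8% of all windows. AGNAACNG, the core of the X1 box, followed on the same strand by ATTGG starting 25 to 45 bases after it was found for H2-Eb1 and H2-DMb1, and in 0.344% of all windows. The shorter core GNAAC in the same arrangement, chosen after the sequences had been seen, was found for 5 of the 7 genes, the 2 DO genes included, and in 3.41% of all windows. From the start of this core to the start of the Y box core there were 33 bases in H2-Aa and H2-Oa and 30 in H2-Ob. H2-DMb2 held no match to either X1 core. H2-DMa had 2 windows, of which neither held the arrangement. A match is a description of letters and was not tested as a binding site.

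Signals are given as log2 of the processed intensity relative to the 75th percentile of the same array, so that 0 is the level of that percentile. Between 56.5% and 61.2% of spots were well above background on an array, and none was saturated. The 2 parental groups shared 1 slide and the 2 transduced groups the other, so the comparisons within each pair lie within a slide, and in those across the pairs slide and group cannot be told apart. The 1 named probe of Lmo2 read 2.09 and 2.10 in pro-B(+), 0.63 and 0.63 in pro-B(-), 0.35 and 0.35 in pro-B(-)/Mock, and 0.99 and 0.93 in pro-B(-)/LMO2. Lmo2 was thus highest in pro-B(+), and pro-B(-)/LMO2 stood 1.53-fold above pro-B(-)/Mock (0.61 ± 0.03, log2, SE, limma adjusted p = 3.8e-05), in the direction of its label. Whether this probe lies in the part of Lmo2 that the vector carries was not determined.

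**Figure D1:**
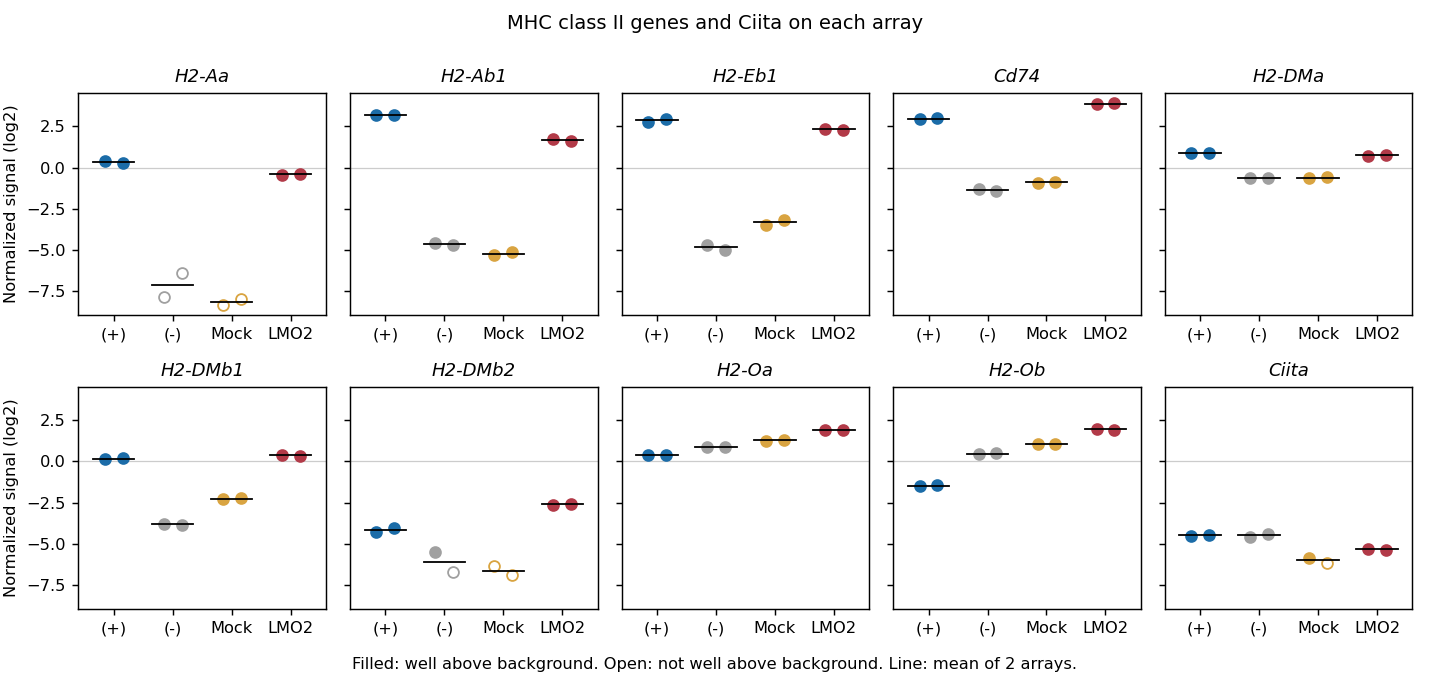
Normalized signal (log2, relative to the 75th percentile of the array) of the brightest probe of each gene on every array, with the parental lines pro-B(+) and pro-B(-) at the left and the Mock and LMO2 transductants at the right. Filled points were well above background, open points were not, and each line is the mean of 2 arrays. In the first 7 panels both pro-B(+) and both pro-B(-)/LMO2 arrays sit above all pro-B(-) and pro-B(-)/Mock arrays, whereas H2-Oa and H2-Ob are lowest in pro-B(+) and Ciita lies below -4 in every group.

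The classical chains were bright in pro-B(+) cells, dim or not above background in pro-B(-) and pro-B(-)/Mock cells, and bright again in pro-B(-)/LMO2 cells. H2-Aa encodes the alpha chain of the I-A molecule. Its signal was 0.39 and 0.28 in pro-B(+), and -0.42 and -0.41 in pro-B(-)/LMO2. In pro-B(-) it was -7.87 and -6.42 and in pro-B(-)/Mock -8.32 and -7.95, none of them well above background, which in processed intensity was 1239 and 1046 in pro-B(+) against 3.47 and 8.97 in pro-B(-). H2-Aa in pro-B(+) was therefore at least 70.4-fold higher than its level in pro-B(-), and at least 51.2-fold higher in pro-B(-)/LMO2 than in pro-B(-)/Mock, where the dim group was set to the lowest signal that was well above background on its arrays. In bulk RNA, fewer cells that express a gene and less of its RNA in each cell cannot be told apart, here and for each gene that follows.

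H2-Ab1, which encodes the beta chain of I-A, was measured above background on all 8 arrays by its brightest probe. The probe read 3.18 and 3.21 in pro-B(+), -4.55 and -4.68 in pro-B(-), -5.32 and -5.11 in pro-B(-)/Mock, and 1.71 and 1.64 in pro-B(-)/LMO2. The 4 groups did not overlap. The difference between the parental lines was 7.81 ± 0.08 (log2, SE, 2 arrays a group), or 225-fold, and that between pro-B(-)/LMO2 and pro-B(-)/Mock was 6.89 ± 0.08, or 119-fold. A second probe gave 7.88 ± 0.05 for the parental lines, and at least 184-fold for the transduced cells because it was not well above background in pro-B(-)/Mock. With normexp the differences of the brightest probe were 6.10 and 4.77.

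H2-Eb1 encodes the beta chain of the I-E molecule, whose alpha chain gene H2-Ea had no named probe. It read 2.77 and 2.94 in pro-B(+), -4.67 and -4.99 in pro-B(-), -3.45 and -3.18 in pro-B(-)/Mock, and 2.34 and 2.28 in pro-B(-)/LMO2. As for H2-Ab1, no 2 groups overlapped, but here pro-B(-)/Mock lay above its parent and not below it. The difference was 7.68 ± 0.14 between the parental lines, or 205-fold, and 5.63 ± 0.14 between the transduced cells, or 49.5-fold, and with normexp 5.64 and 4.48.

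Cd74 encodes the invariant chain, which chaperones class II pairs. It read 2.95 and 2.99 in pro-B(+), -1.31 and -1.42 in pro-B(-), -0.91 and -0.87 in pro-B(-)/Mock, and 3.84 and 3.89 in pro-B(-)/LMO2. Unlike the classical chains, Cd74 was well above background on every array and had its highest signal in pro-B(-)/LMO2. The difference was 4.33 ± 0.05 between the parental lines, or 20.1-fold, and 4.76 ± 0.05 with Lmo2, or 27.0-fold.

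The DM genes, which encode the peptide exchange factor, showed the same order of high and low groups with smaller differences. H2-DMa, its alpha chain, read 0.86 and 0.86 in pro-B(+), -0.66 and -0.64 in pro-B(-), -0.65 and -0.58 in pro-B(-)/Mock, and 0.70 and 0.79 in pro-B(-)/LMO2. The pro-B(-) and pro-B(-)/Mock arrays overlapped, and the other groups did not. In pro-B(+) the gene stood 2.85-fold above pro-B(-) (1.51 ± 0.04, log2, SE), and it was 2.56-fold higher with Lmo2 (1.36 ± 0.04). H2-DMb1, 1 of 2 beta chain genes, read 0.13 and 0.19 in pro-B(+), -3.78 and -3.85 in pro-B(-), -2.26 and -2.24 in pro-B(-)/Mock, and 0.37 and 0.34 in pro-B(-)/LMO2. Its difference was 3.98 ± 0.04, or 15.8-fold, between the parental lines and 2.61 ± 0.04, or 6.10-fold, with Lmo2, where pro-B(-)/Mock already stood above pro-B(-).

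H2-DMb2, the other beta chain gene, was dim throughout. It read -4.29 and -4.02 in pro-B(+), -5.50 and -6.73 in pro-B(-), -6.33 and -6.92 in pro-B(-)/Mock, and -2.64 and -2.56 in pro-B(-)/LMO2. In pro-B(-)/Mock neither array and in pro-B(-) 1 array was well above background, and these 2 groups overlapped. From pro-B(-)/Mock to pro-B(-)/LMO2 the gene rose at least 11.3-fold. Its difference between the parental lines, 1.96 ± 0.42, became 0.45 when the background was modelled with normexp, a convolution model that keeps dim spots above 0. The 2 beta chain genes are close copies, and how far each probe also reads the other gene was not tested.

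The DO genes, which encode the inhibitor of DM, departed from the others in pro-B(+). H2-Oa, its alpha chain, read 0.36 and 0.41 in pro-B(+), 0.89 and 0.85 in pro-B(-), 1.26 and 1.27 in pro-B(-)/Mock, and 1.88 and 1.90 in pro-B(-)/LMO2. H2-Ob, its beta chain, read -1.52 and -1.44 in pro-B(+), 0.44 and 0.52 in pro-B(-), 1.07 and 1.08 in pro-B(-)/Mock, and 1.96 and 1.91 in pro-B(-)/LMO2. Both genes were lowest in pro-B(+), higher in pro-B(-), higher again in pro-B(-)/Mock and highest in pro-B(-)/LMO2, with no overlap between groups. H2-Ob fell by 1.96 ± 0.05 (log2, SE) from pro-B(-) to pro-B(+), and the difference of H2-Oa was -0.49 ± 0.03. With Lmo2 the differences were 0.87 ± 0.05 for H2-Ob and 0.62 ± 0.03 for H2-Oa. The second probe of H2-Ob gave -1.67 ± 0.04 for the parental lines, and a 2.15-fold rise with Lmo2.

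Ciita, the coactivator through which the class II promoters are switched on, was dim in all groups, and its levels in the parental lines overlapped while those of the classical chains lay far apart. Its 1 probe read -4.50 and -4.48 in pro-B(+), -4.56 and -4.39 in pro-B(-), -5.83 and -6.14 in pro-B(-)/Mock, and -5.33 and -5.35 in pro-B(-)/LMO2. The difference between the parental lines was -0.01 ± 0.11 (log2, SE), which became -0.30 when arrays were scaled to their median. Between the transduced cells the difference was 0.65 ± 0.11, or 1.56-fold, and 1 of the 2 pro-B(-)/Mock arrays was not well above background. Ciita transcripts start at several promoters in different cell types, and which of them this probe reads was not determined.

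Counted over the set, a rise of 2-fold or more from pro-B(-) to pro-B(+) was seen for 7 of the 10 genes and for 8.71% of all 23467 probes tested, and a fall of 2-fold or more for 1 gene, H2-Ob, and for 2.69% of probes. The median difference of the 10 genes was 2.97 (log2), beside -0.04 over all probes tested. With Lmo2, a rise of this size was seen for 7 genes and for 7.55% of 22995 probes, and a fall for none of the genes and for 3.19% of probes. The median was 3.32 beside -0.04 over all probes. All 10 genes passed the filter on dim probes in both comparisons, but H2-Aa and H2-DMb2 in both, and Ciita in the second, passed through the brighter group alone. Since the genes were chosen with these comparisons known, nothing is read from the counts. With normexp the first count was 6, because H2-DMb2 left it.

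**Figure D2:**
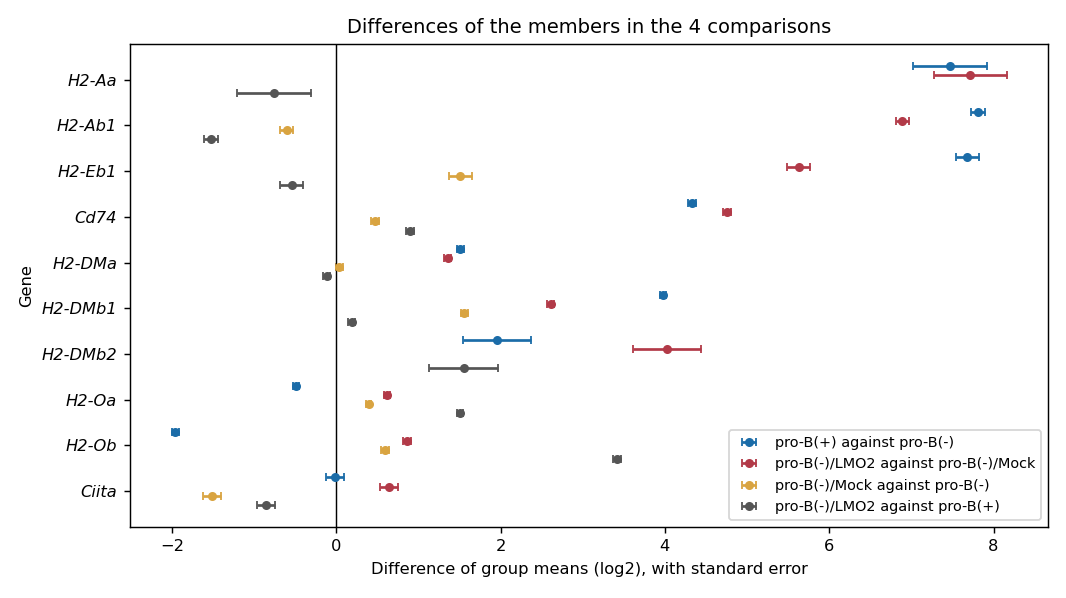
Difference of group means (log2, with its standard error) for the brightest probe of each gene in the 4 comparisons, where a positive value means higher in the group named first. The rises in pro-B(+) and with Lmo2 lie far to the right for the classical chains and Cd74, at 4.33 or more, whereas H2-Oa and H2-Ob lie left of 0 in the parental comparison and right of 0 in the other 3. H2-Aa and H2-DMb2 were not tested in pro-B(-)/Mock against pro-B(-), and differences against groups not well above background are fitted values and not bounds.

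The comparison of pro-B(-)/Mock with untransduced pro-B(-) was not used to choose the genes, but it shares its arrays with the 2 comparisons that were. Its p-values for H2-Ab1 and H2-Eb1 are therefore not independent of that choice. The groups compared lay on different slides, so effects of the empty vector, of the culture and of the slide cannot be told apart here. Of the 10 genes, 8 passed the filter, 5 were higher and 2 were lower at a limma adjusted p under 0.05, where 28.5% of all 23047 probes tested were called higher and 30.8% lower. H2-DMb1 was 2.95-fold higher in pro-B(-)/Mock (1.56 ± 0.04, log2, SE, n = 2, limma adjusted p = 6.3e-06) and H2-Eb1 2.85-fold higher (1.51 ± 0.14, limma adjusted p = 0.00039). Cd74, H2-Oa and H2-Ob rose by 0.47 ± 0.05, 0.39 ± 0.03 and 0.60 ± 0.05, with limma adjusted p-values of 0.00065, 0.00034 and 0.00021. H2-Ab1 fell by 0.60 ± 0.08 (limma adjusted p = 0.0017) and was at least 2.34-fold lower by its second probe. Ciita fell by 1.51 ± 0.11 (limma adjusted p = 0.00016), but it passed the filter through pro-B(-) alone, since 1 of the 2 pro-B(-)/Mock arrays did not have it above background. The difference of H2-DMa was 0.04 ± 0.04 (limma adjusted p = 0.48), and H2-Aa and H2-DMb2 were not tested, since neither group had the gene above background on both of its arrays. The shifts of the called genes were smaller in size than their differences in both comparisons described above, with the exception of Ciita. With normexp the changes of the dim genes shrank, to -0.15 for H2-Ab1, 0.61 for H2-Eb1, 0.88 for H2-DMb1 and -0.33 for Ciita, and each was still called.

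The comparison of pro-B(-)/LMO2 with pro-B(+) asks how close the levels of both bright groups were, and was also not used to choose the genes. It too shares its arrays with the comparisons that were, with the same limit for H2-Ab1 and H2-Eb1. Here too the groups lay on different slides. All 10 genes were tested, 5 were higher and 3 lower in pro-B(-)/LMO2, where 34.9% of all 24133 probes tested were called higher and 41.5% lower. H2-Ab1 fell by 1.52 ± 0.08 (log2, SE, limma adjusted p = 2.6e-05), that is, it was 2.87-fold lower in pro-B(-)/LMO2 than in pro-B(+). H2-Eb1 was 1.46-fold lower (-0.54 ± 0.14, limma adjusted p = 0.015), a call that was lost without pro-B(+) replicate 2 or either pro-B(-)/LMO2 array. The difference of H2-Aa was -0.75 ± 0.45 (limma adjusted p = 0.18). Without either of the 2 pro-B(-) arrays, which differed by more than 1 on the log2 scale and had the gene not above background, the difference of H2-Aa was the same and its adjusted p was 0.0057.

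Cd74 was 1.87-fold higher in pro-B(-)/LMO2 than in pro-B(+) (0.90 ± 0.05, limma adjusted p = 2.8e-05). H2-DMb1 was 1.14-fold higher (0.19 ± 0.04, limma adjusted p = 0.0074). H2-DMb2 was 2.94-fold higher (1.55 ± 0.42, limma adjusted p = 0.017), a call that was lost without any 1 of the 4 arrays compared (limma adjusted p = 0.051 to 0.077). The difference of H2-DMa was -0.12 ± 0.04 (limma adjusted p = 0.055), which was called under 7 of the alternatives (adjusted p = 0.029 to 0.049), leaving out pro-B(-)/LMO2 replicate 2 among them. Both DO genes also stood above their pro-B(+) level, with H2-Ob 10.7-fold higher (3.42 ± 0.05, limma adjusted p = 3.8e-07) and H2-Oa 2.84-fold higher (1.50 ± 0.03, limma adjusted p = 1.5e-06). Ciita differed by -0.85 ± 0.11 (limma adjusted p = 0.00087), but with normexp its difference was 0.016 (adjusted p = 0.81), and over the other alternatives its adjusted p was 0.00038 to 0.008.

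The lists of genes that follow were also drawn up with earlier results of these data known. Their p-values and call counts, for pro-B(+) against pro-B(-) and for pro-B(-)/LMO2 against pro-B(-)/Mock, are therefore a description and not independent tests. In RNA, none of the 7 genes whose proteins assemble on the X and Y boxes differed by 2-fold or more in either of these comparisons. In the RFX complex, Rfx5 was not well above background in pro-B(+), where it read -5.92 and -5.85, against -5.30 and -5.26 in pro-B(-). It was at least 1.37-fold lower in pro-B(+), and passed the filter through pro-B(-) alone. The limma adjusted p of 0.0028 belongs to its fitted difference and not to this bound. With Lmo2, Rfxank rose by 0.63 ± 0.06 (limma adjusted p = 0.00031) and Rfx5 by 0.35 ± 0.09 (limma adjusted p = 0.015), the call of Rfx5 being lost with median or quantile scaling, with an intensity trend and without either pro-B(-)/LMO2 array. Rfxap was not called in either comparison, nor was Rfxank between the parental lines. With median scaling both were called lower in pro-B(+), with differences of -0.36 and -0.44 (limma adjusted p = 0.0076 and 0.0014). With quantile scaling Rfxap was also called lower there (-0.22, limma adjusted p = 0.049). Creb1 rose by 0.15 ± 0.03 in pro-B(+) (limma adjusted p = 0.014), but its difference was -0.14 with median scaling. The call was lost with quantile scaling, with no filter on dim probes, without either pro-B(+) array or without pro-B(-) replicate 1. With Lmo2 its brightest probe was not called and its other probe fell by 0.45. The 3 subunits of NF-Y fell with Lmo2, with differences of -0.33 ± 0.06 for Nfya, -0.42 ± 0.08 for Nfyb and -0.25 ± 0.04 for Nfyc, at limma adjusted p-values of 0.0037, 0.0042 and 0.0013. None was called between the parental lines, although with median scaling Nfya (-0.46, adjusted p = 0.00097) and Nfyc (-0.27, adjusted p = 0.0017) were lower in pro-B(+), and Nfya was also called lower under 6 other alternatives (adjusted p = 0.02 to 0.049). Of these 7 genes, 1 was called higher and 1 lower in pro-B(+), where 20.8% of all probes were called higher and 28.4% lower, and 2 were called higher and 3 lower with Lmo2, where 28.4% and 36.4% were. Their medians were -0.07 and 0.02, beside -0.04 and -0.04 over all probes.

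Among 13 genes known to act on Ciita transcription, the interferon regulatory factors Irf4 and Irf8 had the widest differences. Irf8 read 2.61 and 2.61 in pro-B(+), 0.47 and 0.55 in pro-B(-), 1.09 and 1.05 in pro-B(-)/Mock, and 2.87 and 2.90 in pro-B(-)/LMO2. Irf4 read -1.70 and -1.67, -4.57 and -4.45, -4.81 and -5.24, and -3.21 and -3.23 in the same order of groups. Both genes were high in the 2 groups in which the classical chains were high. Irf8 rose by 2.10 ± 0.04 in pro-B(+) (limma adjusted p = 1e-06) and by 1.82 ± 0.04 with Lmo2 (limma adjusted p = 1.6e-06), and Irf4 by 2.82 ± 0.14 (limma adjusted p = 2.8e-05) and 1.81 ± 0.14 (limma adjusted p = 0.00011). Spi1, which encodes the factor PU.1, rose by 0.54 ± 0.04 (limma adjusted p = 0.00013) and 0.35 ± 0.04 (limma adjusted p = 0.00047).

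The genes of the interferon gamma route moved in part. Ifngr2, a receptor chain, rose by 1.08 ± 0.05 in pro-B(+) (limma adjusted p = 3e-05), and its difference with Lmo2 was 0.14 ± 0.05 (limma adjusted p = 0.057). Ifngr1 rose by 0.40 ± 0.05 and 0.23 ± 0.05, at limma adjusted p-values of 0.0014 and 0.0086, both calls being lost with median scaling. The kinases Jak1 and Jak2 rose with Lmo2 by 0.66 ± 0.04 and 0.70 ± 0.04 (limma adjusted p = 4.4e-05 and 2.7e-05). Irf1, Irf2 and Usf1 rose by 0.41 ± 0.04, 0.40 ± 0.06 and 0.46 ± 0.06 (limma adjusted p = 0.00023, 0.0016 and 0.0012). Neither these factors nor the kinases were called between the parental lines, but their calls there depended on the processing. With median scaling all were called lower in pro-B(+) (limma adjusted p = 0.00045 to 0.024), and Irf2 also with the replicate block (limma adjusted p = 0.048). Irf1 was instead called higher with quantile scaling, normexp and an intensity trend (limma adjusted p = 0.021 to 0.048). Jak1 was called higher with quantile scaling and the trend (limma adjusted p = 0.031 and 0.022), and Usf1 differed by 0.19 without pro-B(+) replicate 1. Socs1, an inhibitor of the JAK kinases, fell by 0.67 in pro-B(+) (-0.67 ± 0.04, limma adjusted p = 5.5e-05) and rose by 0.50 ± 0.04 with Lmo2 (limma adjusted p = 0.00011). Prdm1, a repressor of Ciita, had no group with both arrays above background and was not tested. Over the list, 5 of 12 genes tested were called higher and 1 lower in pro-B(+), beside 20.8% and 28.4% of all probes, and 11 higher and none lower with Lmo2, beside 28.4% and 36.4%. The medians were 0.14 and 0.48. Under median scaling the differences of Irf1, Jak1 and Usf1 between the parental lines turned negative.

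The processing genes work beside class II in antigen-presenting cells. Ctss, the protease that degrades the invariant chain, read 3.71 and 3.58 in pro-B(+), -0.78 and -0.76 in pro-B(-), 0.76 and 0.72 in pro-B(-)/Mock, and 2.28 and 2.20 in pro-B(-)/LMO2. It rose by 4.41 ± 0.06 in pro-B(+) (limma adjusted p = 3.8e-07) and 1.50 ± 0.06 with Lmo2 (limma adjusted p = 8.2e-06). The endosomal proteases Lgmn and Ctsb rose by 1.89 ± 0.05 and 1.68 ± 0.05 in pro-B(+) (limma adjusted p = 2.3e-06 and 3.9e-06), and their differences with Lmo2 were 0.19 ± 0.05 (limma adjusted p = 0.013) and 0.13 ± 0.05 (limma adjusted p = 0.053), both negative under median scaling. The call of Lgmn was lost without pro-B(-)/Mock replicate 2 or pro-B(-)/LMO2 replicate 1. Ifi30, a lysosomal thiol reductase, rose by 1.51 ± 0.04 in pro-B(+) (limma adjusted p = 2.3e-06) and fell by 0.54 with Lmo2 (-0.54 ± 0.04, limma adjusted p = 8e-05). Of 9 processing genes, 7 were called higher and 2 lower in pro-B(+), beside 20.8% and 28.4% of all probes, and 4 higher and 3 lower with Lmo2, beside 28.4% and 36.4%, with medians of 0.92 and 0.13.

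For Marchf1, which encodes a ubiquitin ligase that removes class II from the surface, the 2 probes disagreed, and the gene is named here after its values were seen. The brighter probe differed by -0.30 ± 0.08 between the parental lines and by 0.13 ± 0.08 with Lmo2. The other read -1.11 and -1.01 in pro-B(+) and -2.77 and -2.89 in pro-B(-)/LMO2, and was not well above background in the remaining groups. By this probe Marchf1 stood at least 26.8-fold above pro-B(-) in pro-B(+) and at least 9.66-fold higher with Lmo2. Which transcripts each probe reads was not determined.

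Of the 6 costimulation genes, all were called higher in pro-B(+), beside 20.8% of all probes. With Lmo2 4 of 5 tested were higher and 1 lower, beside 28.4% and 36.4%. The medians were 1.68 and 1.51. Cd274, the ligand PD-L1, rose by 2.51 ± 0.18 (limma adjusted p = 0.00013) and 2.15 ± 0.18 (limma adjusted p = 0.00015). Pdcd1lg2, the ligand PD-L2, rose at least 3.45-fold in pro-B(+) and at least 13.6-fold with Lmo2. Its limma adjusted p-values, 0.0004 and 1.2e-05, belong to the fitted differences and not to these bounds. In both comparisons it passed the filter through the brighter group alone. Cd86 went apart in the 2 comparisons, with -0.25 and -0.25 in pro-B(+), -1.77 and -1.69 in pro-B(-), -2.89 and -2.94 in pro-B(-)/Mock, and -4.61 and -4.43 in pro-B(-)/LMO2. It rose by 1.48 ± 0.07 in pro-B(+) (limma adjusted p = 2.1e-05) and fell by 1.60 with Lmo2 (-1.60 ± 0.07, limma adjusted p = 1.3e-05). Cd40 rose at least 3.58-fold in pro-B(+), through which alone it passed the filter, and its fitted difference had a limma adjusted p of 3e-05. It was not well above background in either transduced group.

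Genes that lie among the class II genes on the chromosome went the other way between the parental lines. Of 6 such genes with a probe, 1 was called higher and 5 lower in pro-B(+), beside 20.8% and 28.4% of all probes. With Lmo2 4 were called higher and none lower, beside 28.4% and 36.4%. The medians were -0.61 and 0.37. Tap2, a subunit of the peptide transporter of the class I route, read 3.48 and 3.49 in pro-B(+), 4.58 and 4.65 in pro-B(-), 5.12 and 5.18 in pro-B(-)/Mock, and 5.47 and 5.48 in pro-B(-)/LMO2, an order shared with H2-Oa and H2-Ob. The differences between the parental lines were -1.13 ± 0.04 for Tap2, -0.89 ± 0.03 for the immunoproteasome subunit Psmb9 and -0.87 ± 0.04 for Tap1 (limma adjusted p = 8.7e-06, 7.4e-06 and 1.6e-05). With Lmo2 the same 3 rose by 0.32 ± 0.04, 0.41 ± 0.03 and 0.70 ± 0.04 (limma adjusted p = 0.00083, 0.00011 and 2.8e-05), the call of Tap2 being lost with median scaling. H2-Eb2, a class II beta gene next to H2-Eb1, rose by 0.91 ± 0.25 in pro-B(+) (limma adjusted p = 0.029), a call lost with median or quantile scaling and without pro-B(+) replicate 1 or pro-B(-) replicate 2. This gene was dim, and it passed the filter through pro-B(+) alone, since pro-B(-) replicate 2 did not have it well above background.

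Of 12 genes of class I presentation, 6 were called higher and 3 lower in pro-B(+), beside 20.8% and 28.4% of all probes. With Lmo2 10 were higher and 2 lower, beside 28.4% and 36.4%. The medians were 0.12 and 0.75. Nlrc5, the transactivator of class I genes and a relative of Ciita, read -0.81 and -0.79 in pro-B(+), 1.01 and 0.97 in pro-B(-), 1.16 and 1.26 in pro-B(-)/Mock, and 2.33 and 2.26 in pro-B(-)/LMO2. It fell by 1.79 in pro-B(+) (-1.79 ± 0.05, limma adjusted p = 2.9e-06) and rose by 1.08 ± 0.05 with Lmo2 (limma adjusted p = 1.6e-05). Tapbp, the tapasin gene, rose by 0.58 ± 0.03 and 1.58 ± 0.03 (limma adjusted p = 6.8e-05 and 1.5e-06), and H2-K1 by 0.47 ± 0.08 and 1.43 ± 0.08 (limma adjusted p = 0.0042 and 3.2e-05), the rise of H2-K1 in pro-B(+) losing its call with median scaling. The other probe of H2-K1 rose by 1.17 ± 0.04 and 1.21 ± 0.04. H2-T23 rose by 1.39 ± 0.04 with Lmo2 (limma adjusted p = 3.1e-06), while its smaller difference in pro-B(+), 0.17 ± 0.04, was negative under median scaling and lost its call without any 1 of the 4 arrays. Class I genes are a family of close copies, so a probe may read several of them.

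**Figure D3:**
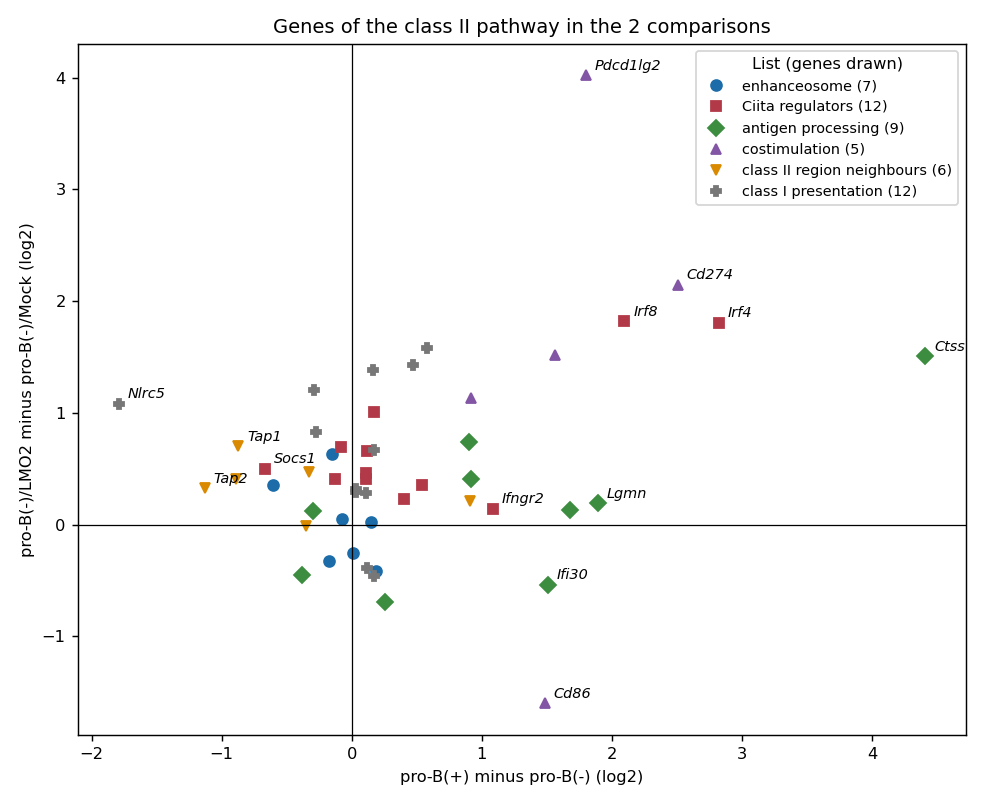
Each point is 1 gene of 6 pathway lists, with its difference between pro-B(+) and pro-B(-) (log2) on the x axis and between pro-B(-)/LMO2 and pro-B(-)/Mock (log2) on the y axis, for genes tested in both. Ctss, Irf4, Irf8, Cd274 and Pdcd1lg2 lie to the upper right, while Nlrc5, Tap1, Tap2 and Socs1 lie left of 0 and above it, and Cd86 and Ifi30 lie right of 0 and below it.

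Over the 6 lists, 53 of 54 genes had a probe. In pro-B(+) 26 of 52 tested were called higher and 12 lower, beside 20.8% and 28.4% of all probes. With Lmo2 35 of 51 were called higher and 9 lower, beside 28.4% and 36.4%. These splits depend on the level at which arrays are set equal. Scaling to the median moved the median difference of all probes to -0.33 in the parental comparison and to -0.25 with Lmo2. Of all probes called, the share higher in pro-B(+) went from 42.3% to 15.9%, and that with Lmo2 from 43.8% to 24.6%. For the lists the split in pro-B(+) was 17 higher and 24 lower (41.5% higher in place of 68.4%), and with Lmo2 28 higher and 11 lower. The number of genes of the set at least 2-fold higher was 7 in both comparisons under this scaling too.

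Markers of cells that carry class II were read beside these values. The macrophage and monocyte list, of which 7 of 9 genes had a probe, summed to between 21.9 and 22.1 in pro-B(+) (the sum of linear signals in units of the 75th percentile), between 4.85 and 5.47 in pro-B(-), between 6.54 and 6.91 in pro-B(-)/Mock, and between 6.28 and 6.93 in pro-B(-)/LMO2. The summed signal was thus high in pro-B(+) together with the class II genes, whereas in the transduced cells it overlapped. Most of the sum in the transduced cells came from Itgam, whose brightest probe averaged 2.44 (log2) in pro-B(-)/Mock and 2.41 in pro-B(-)/LMO2. In pro-B(+) 6 of 7 were called higher, beside 20.8% of all probes. With Lmo2 4 of 6 tested were higher and 1 lower, beside 28.4% and 36.4%. Lyz2, Mertk and Cd14 passed the filter through pro-B(+) alone in the first comparison. In the second, Lyz2 and Fcgr1 passed it through pro-B(-)/LMO2 alone. Csf1r, the receptor of macrophage colony stimulating factor, read 3.65 and 3.66 in pro-B(+), -0.75 and -0.84 in pro-B(-), -1.35 and -1.40 in pro-B(-)/Mock, and -0.59 and -0.66 in pro-B(-)/LMO2. Lyz2, the lysozyme gene of myeloid cells, stood in pro-B(+) at least 127-fold above pro-B(-) and was at least 10.5-fold higher with Lmo2. Adgre1, which encodes F4/80, rose by 2.65 ± 0.05 in pro-B(+) (limma adjusted p = 1.3e-06) and fell by 1.21 with Lmo2 (-1.21 ± 0.05, limma adjusted p = 1.7e-05). The part of myeloid transcripts in the class II values was not tested.

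The dendritic list of 8 genes summed to between 29.6 and 33.1 in pro-B(+), between 26.9 and 30.2 in pro-B(-), between 39.3 and 39.7 in pro-B(-)/Mock, and between 39.4 and 42.4 in pro-B(-)/LMO2. Within each pair of groups on a slide these ranges overlapped. Most of the sum came from Siglech, a gene of plasmacytoid dendritic cells, whose brightest probe read between 4.34 and 5.21 on the 8 arrays and was not called in either comparison, whereas its other probe rose by 1.75 ± 0.06 in pro-B(+) and 3.55 ± 0.05 with Lmo2 (limma adjusted p = 5.4e-06 and 5.9e-07). Xcr1 and Clec9a were not well above background on any array. Itgax, which encodes CD11c, rose by 1.58 ± 0.04 and 1.04 ± 0.04 (limma adjusted p = 2.3e-06 and 9.3e-06), and Ccr7, a chemokine receptor, by 1.97 ± 0.06 and 1.08 ± 0.06 (limma adjusted p = 6.3e-06 and 4.6e-05). Zbtb46 was dim and rose by 0.25 ± 0.07 in pro-B(+) (limma adjusted p = 0.029). Batf3, which 1 pro-B(-) array did not have above background, rose by 4.14 ± 0.09 in pro-B(+) (limma adjusted p = 1.3e-06) and 5.05 ± 0.09 with Lmo2 (limma adjusted p = 7.5e-07). In all, 5 of 6 tested were called higher in pro-B(+) and 3 of 5 with Lmo2, and none lower. Between the parental lines, Batf3 and Cd209a passed the filter through pro-B(+) alone. Of all probes, 20.8% were called higher and 28.4% lower in pro-B(+), and 28.4% and 36.4% with Lmo2. The mature B list of 8 genes summed to at most 1.05 on any array, and its defining gene Ms4a1 was not well above background on any. In pro-B(+) 1 of 6 was called higher, Cd79b, and 1 lower, and with Lmo2 2 of 5 were higher and 1 lower. The shares of all probes were those just given.

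The thymic epithelium list of 6 genes summed to between 0.140 and 0.152 in pro-B(+) and to 0.094 on both pro-B(-) arrays. In the transduced cells its sums overlapped, between 0.084 and 0.105 in pro-B(-)/Mock and between 0.097 and 0.111 in pro-B(-)/LMO2. Foxn1 and Epcam were not well above background on any array. Aire was so on both arrays of every group but pro-B(+), Krt8 in pro-B(+) alone, and Krt5 and Psmb11 on some arrays. The stroma list of 10 genes summed to between 9.15 and 9.80 in pro-B(+), between 3.63 and 3.72 in pro-B(-), between 8.54 and 8.64 in pro-B(-)/Mock, and between 12.8 and 13.6 in pro-B(-)/LMO2. The stroma sum was therefore also higher in the 2 groups in which the class II genes were high than in the group compared with each, although pro-B(-)/Mock, where class II was low, stood close to pro-B(+). Of this list, 6 of 7 tested were called higher in pro-B(+) and none lower, beside 20.8% and 28.4% of all probes. With Lmo2 4 of 8 were higher and 1 lower, beside 28.4% and 36.4%. The share of stromal RNA in the class II signal was not tested. The pro-B and progenitor list of 10 genes summed to between 44.7 and 66.5 on all arrays, and Il7r, Kit, Flt3 and Ptprc were well above background on each. In pro-B(+) 1 of the 10 was called higher and 7 lower, and with Lmo2 2 higher and 6 lower, beside the same shares of all probes. The recombinase genes Rag1 and Rag2 were lower in pro-B(-)/LMO2 than in pro-B(-)/Mock, with differences of -2.78 ± 0.14 and -2.11 ± 0.04 (limma adjusted p = 2.5e-05 and 7.8e-07). Dntt, which encodes terminal transferase, had a difference of -2.92 ± 0.07 in pro-B(+) (limma adjusted p = 1.9e-06) and rose by 4.02 ± 0.07 with Lmo2 (limma adjusted p = 7.4e-07). The part of a shift in the make-up or stage of the cells in the class II values was not tested.

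**Figure D4:**
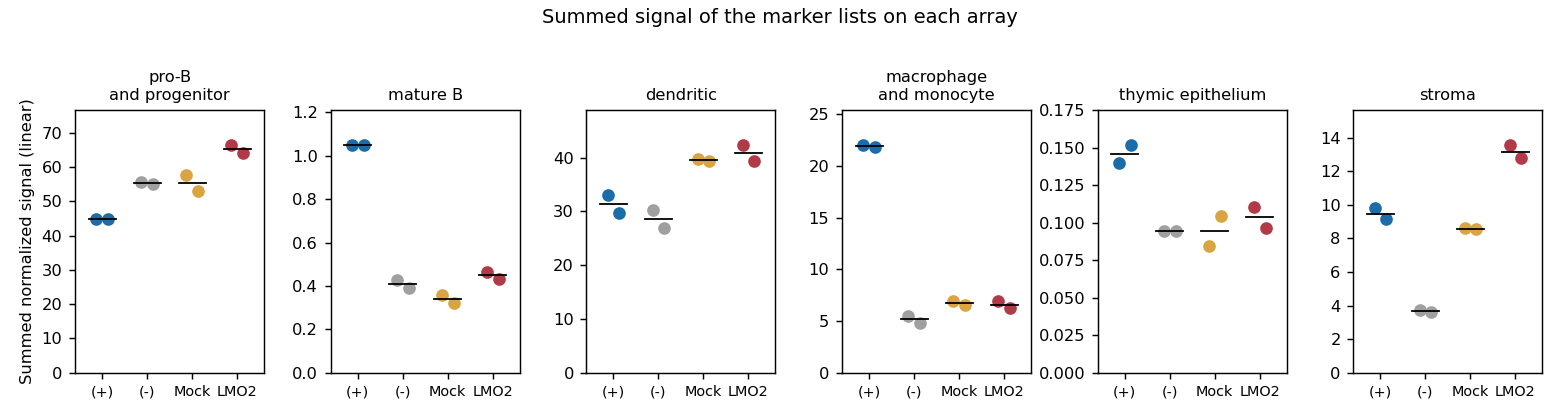
Summed linear signal of the brightest probe of each listed marker gene (in units of the 75th percentile of the array), 1 panel a list, with the parental lines pro-B(+) and pro-B(-) at the left and the Mock and LMO2 transductants at the right; points are arrays and lines the mean of 2. The macrophage and monocyte sum is between 21.9 and 22.1 in pro-B(+) and at most 6.93 elsewhere, whereas the stroma sum is lowest in pro-B(-).

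The genes of the array whose pattern was most like that of the class II genes were sought by Pearson's r over the 8 arrays with the mean of H2-Aa, H2-Ab1, H2-Eb1 and Cd74, among 2049 genes that were above background in at least 1 group and whose group means ranged over at least 2 (log2). The 8 arrays share the 4 groups, so r mostly follows 4 levels and is given as a description. The 10 most alike were Dpep2, Wfdc17, Wfdc21, Il10ra, Ifitm6, Ccl4, Bcl11a, Jaml, Csprs and Cd83, with r from 0.994 to 0.997. Il10ra, the receptor chain of interleukin 10, stood in pro-B(+) 7.43-fold above pro-B(-) and was 4.76-fold higher with Lmo2. Ccl4, a chemokine, was 35.7-fold and 41.6-fold higher, and Bcl11a, a lymphoid transcription factor, 47.6-fold and 58.4-fold higher. There were 25 genes with r over 0.99 and 90 with r over 0.95.

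Within the set, r with the same mean was 0.999 for H2-DMa, 0.947 for H2-DMb1 and 0.887 for H2-DMb2, but 0.01 for H2-Oa, -0.26 for H2-Ob and 0.26 for Ciita. Among the factors of the pathway, Irf8 had 0.971, Spi1 0.951 and Irf4 0.911, and the other Ciita regulators ranged from -0.08 for Socs1 to 0.81 for Ifngr2. The RFX and NF-Y subunits lay between -0.62 for Nfya and 0.47 for Rfxank, and Creb1 had 0.65.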

How the data were processed

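Total RNA of 8 samples was labelled with Cy3 and hybridised to Agilent mouse arrays in the one-colour format. Scanner output from Agilent Feature Extraction was deposited, in which the processed intensity has the background subtracted and spatial trends removed. The authors' log2 values, deposited as a matrix, came from 75th percentile normalization in GeneSpring GX and served as an alternative. Flags deposited with each spot mark saturation, outliers and signal well above background. No genome build is used for the array values.

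Control spots and outlier spots were left out, spots of 1 probe averaged, and each array scaled to its own 75th percentile before log2 was taken. Of 39429 probes, 51 had no usable spot on some array and 39378 remained, of which 26550 (67.4%) were named through RefSeq accessions. The brightest probe stands for a gene, and H2-Ea, Cd68 and Ly6c2 had no named probe. Probes that either group compared had well above background on both of its arrays were tested with limma (version 3.58.1, R 4.3.3) in 1 fit over the 4 groups, with moderation and Benjamini-Hochberg adjustment over the probes tested in each comparison. The procedure was checked on simulated data. With 2 arrays a group, an exact permutation test cannot go below p = 0.333, so only the fit across all probes was used. The number of arrays limits the precision.

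The members and lists were chosen with earlier results of these data known. Named were all members, the genes of the promoter complex and of the Ciita regulators (some listed genes are counted but not reported here by name), and up to 4 genes of each other list with the widest called difference. Lists of antigen processing, costimulation, neighbouring and class I genes and of markers were counted gene by gene, without a set test. Tried as alternatives were median and quantile scaling, normexp (offset 50), the deposited matrix, no filter and a stricter filter, outlier spots kept, an intensity trend, the replicate number as a block, each array left out and the other probe of a gene. Promoter windows came from RefSeq (GRCm38.p6), and the shorter X1 core was added after the sequences had been seen.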

Additional observations from a re-analysis of the deposited data

How the results depend on the processing

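The counts of this paragraph, taken in both directions together, kept within 1.5 times their reported values under each alternative run, but their splits did not all do so: with median scaling the pathway genes in pro-B(+) were 17 higher and 24 lower in place of 26 and 12, and all probes 2949 and 15643 in place of 4884 and 6665. With normexp none of the set was 2-fold higher in pro-B(-)/Mock than in its parent, in place of 2. The number of genes of the set at least 2-fold higher was 5 to 7 in both comparisons with a stricter filter as the lowest, that of genes called was 6 to 8 in pro-B(-)/Mock against pro-B(-) and 6 to 9 in pro-B(-)/LMO2 against pro-B(+), and the pathway genes called ranged from 32 to 42 in pro-B(+) and from 39 to 47 with Lmo2. The count of 6 in the second of these came without pro-B(+) replicate 2 or pro-B(-)/LMO2 replicate 1. Replicate numbers are shared between groups, but samples of the same number did not deviate together (r from -0.03 to 0.05 over 6 pairs), so they share only a number. With the replicate block the counts were 7, 7, 7, 9, 39 and 45 in the order above, and the adjusted p of H2-DMa in pro-B(-)/LMO2 against pro-B(+) became 0.045.

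Some small differences changed sign. With normexp, H2-DMa in pro-B(-)/Mock against pro-B(-) was -0.0033 and Ciita in pro-B(-)/LMO2 against pro-B(+) was 0.016. With median scaling, differences in pro-B(+) were -0.1353 for Creb1, -0.0967 for Nfyb, -0.2746 for Nfyc, -0.1747 for Irf1, -0.1702 for Jak1, -0.1743 for Usf1 and -0.1181 for H2-T23, and with Lmo2 -0.1627 for Rfxap, -0.1915 for Creb1, -0.0678 for Ifngr2, -0.0174 for Lgmn, -0.0759 for Ctsb and -0.0028 for H2-Eb2. With quantile normalization they were -0.0098 for Usf1 in pro-B(+), and -0.1026 for Rfxap, -0.0698 for Creb1 and -0.0109 for H2-Eb2 with Lmo2. Leaving out 1 array, Rfxap with Lmo2 ranged from -0.0327 without pro-B(-)/Mock replicate 1 to 0.1263 without replicate 2, and Nfyc in pro-B(+) from -0.0101 without pro-B(-) replicate 1 to 0.0294 without its replicate 2, with -0.0011 without pro-B(+) replicate 1. The parental difference of H2-Ab1 minus its Lmo2 effect was 0.92 by the brightest probe and -0.1252 by the other. For dim genes the background correction moved the size most: with normexp H2-Aa differed by 3.86 in pro-B(+) and by 3.10 with Lmo2, in place of 7.47 and 7.72, H2-Ab1 by 6.10 and 4.77 in place of 7.81 and 6.89, H2-Eb1 by 5.64 and 4.48 in place of 7.68 and 5.63, H2-DMb1 by 2.98 and 2.24 in place of 3.98 and 2.61, and H2-DMb2 with Lmo2 by 1.29 in place of 4.02. The cause of these changes was not tested. Signal over background limits H2-Aa, H2-DMb2 and Ciita.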
